A study of Mus musculus with 2 samples.

Results

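Complex I, the NADH dehydrogenase of the respiratory chain, was examined through the genes for its subunits and assembly factors in mouse Lewis lung carcinoma (LLC) cells with and without knockdown of PDLIM2. Members were all genes whose symbol in the platform annotation began with Nduf, together with the assembly factors Timmdc1, Acad9, Ecsit, Foxred1, Nubpl and Tmem126b. The rule found 52 of 19505 genes, each with 1 probe set. Of these, 35 encode subunits, 14 encode assembly factors, Ndufa4 and Ndufa4l2 carry the family name without being complex I subunits, and Ndufb4b has a symbol that marks it as a copy of Ndufb4. Not analysed here were the subunit gene Ndufb1 and the subunits that mitochondrial DNA encodes.

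Both lines were stable LLC lines of the C57BL/6 strain, made by infection with virus and selection with puromycin. The control line carried shEmpty shRNA and the knockdown line an shRNA against PDLIM2 (shPDLIM2). The sources used here do not say whether either line is a single clone. RNA of each line was hybridized to 1 Affymetrix Clariom S mouse array, so that no difference has an error between cultures or a p-value. Each probe set has 1 log2 signal, made with RMA from its probes, and a negative log2 difference means a lower signal after knockdown than in shEmpty cells.

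Complex I is an L-shaped enzyme of the inner mitochondrial membrane that passes electrons from NADH to ubiquinone and pumps protons. Its matrix arm consists of the N module, which binds NADH and holds the flavin, and the Q module, which leads electrons through iron-sulfur clusters to ubiquinone. Its membrane arm holds the proton pumps, which mitochondrial DNA encodes, surrounded by small nuclear-encoded subunits. Core subunits have counterparts in the bacterial enzyme, supernumerary subunits do not, and assembly factors help to build the complex without remaining in it. The placement of subunits followed the human and bovine enzyme.

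The knockdown and the identity of the cells were checked first. The log2 signal of Pdlim2 was 10.04 in shEmpty cells and 8.33 after knockdown, and Actb, the cytoskeletal actin, had 18.22 and 17.98. As a measure of signal from silent genes served 1465 chemosensory receptor genes, whose 95th percentile was 5.12 on the shEmpty and 5.26 on the shPDLIM2 array. Signals past this limit are called above background. Log2 differences of the central 95% of receptor genes ran from -0.79 to 1.01, a scale for differences in the absence of expression. In 48 genes with 2 probe sets, the SD of 1 probe set's difference was 0.35. Of 6 carcinoma markers, Krt18, Krt8 and Krt7 were above background on both arrays, Krt19 on the shEmpty array alone, and Epcam and Cdh1 on neither. Krt18 had log2 signals of 12.20 and 11.29. Of 6 mesenchymal markers, Vim (19.56 and 19.46) and Col3a1 (10.83 and 10.49) were above background on both arrays, Dcn (5.06 and 5.82) and Pdgfrb (5.01 and 5.55) on the shPDLIM2 array alone, and Col1a1 and Col1a2 on neither. The part of these markers in the results was not tested. None of 5 leukocyte and 4 endothelial markers was above background on both arrays, and Adgre1, a macrophage marker, was above it on the shPDLIM2 array alone, at 4.93 and 5.76.

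The signals of most complex I subunit genes were lower after PDLIM2 knockdown. The 35 subunit genes divided into 30 lower and 5 higher, and their median log2 difference was -0.42. Over all 19505 genes, 49.0% were lower, 50.0% were higher and the median was 0.01; over the 10800 genes above background on at least 1 array, 54.9% were lower, 44.2% were higher and the median was -0.06. At least 2-fold lower were 5 subunit genes, where 2.01% of all genes and 3.27% of genes above background were that much lower. No subunit gene was at least 2-fold higher, where 1.74% of all genes and 2.09% of those above background were. A 1.5-fold limit was passed by 13 subunit genes to the lower side and by none to the higher one, against 10.0% and 9.78% of all genes and 14.5% and 9.78% of genes above background. All 35 were above background on both arrays. The respiratory chain was singled out by the study from these same arrays, so the direction of this list is not independent evidence. In cultured cells as in tissue, fewer expressing cells and less RNA per cell cannot be told apart.

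**Figure D1:**
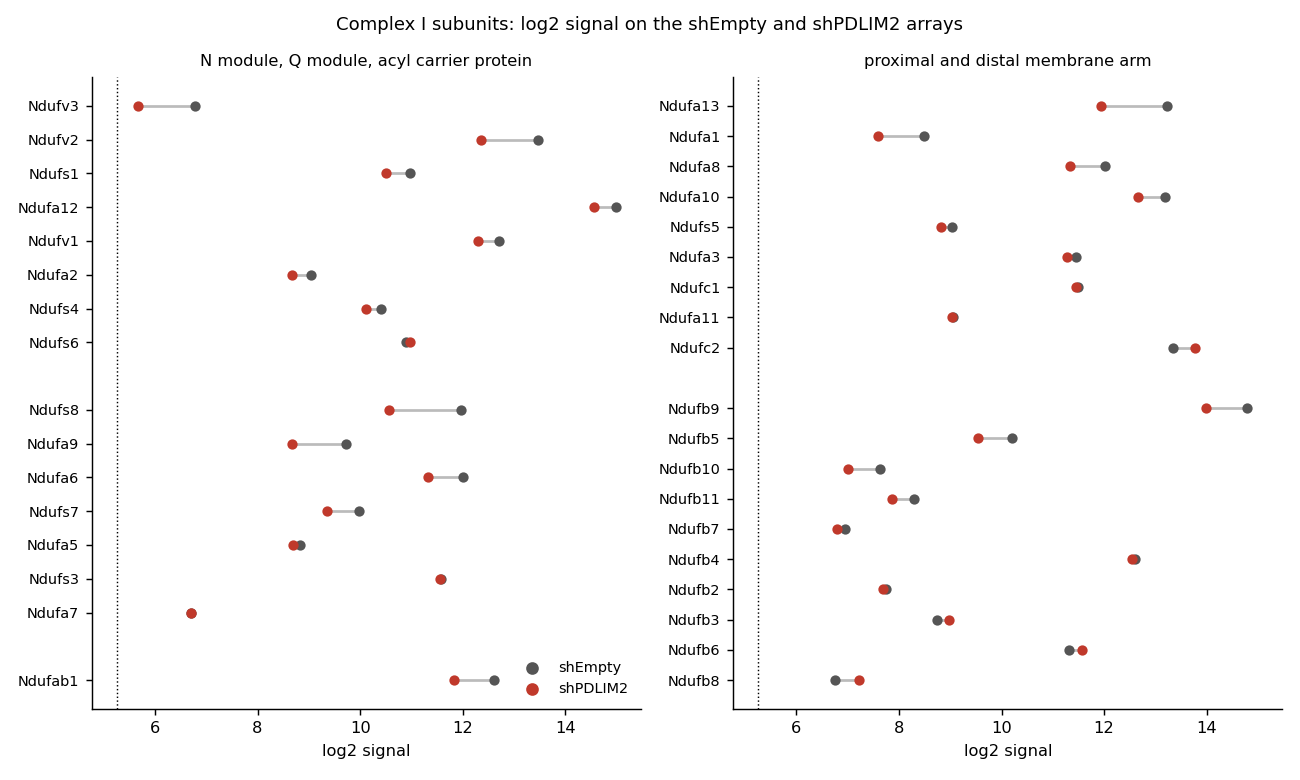
Log2 signal of each complex I subunit gene on the shEmpty array (grey points) and the shPDLIM2 array (red points), grouped by module and ordered by difference, with 1 array per line and the background limit of the shPDLIM2 array (5.26) as a dotted line. The red point lies left of the grey point in 30 of 35 genes.

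The genes at least 2-fold lower belonged to the matrix arm and to the joint between the arms. Ndufs8, a core subunit of the Q module that carries a pair of iron-sulfur clusters, had log2 signals of 11.97 in shEmpty cells and 10.57 after knockdown, a difference of -1.40 (2.64-fold lower). Ndufa13, also known as GRIM-19, spans the membrane where the arms meet and went from 13.22 to 11.93, a difference of -1.29 (2.45-fold lower). These were the largest negative differences among the 52 genes. Ndufv3, a small supernumerary subunit of the N module, had signals of 6.79 and 5.66, a difference of -1.13, with the lower of them near the background limit. Ndufv2, the core subunit of the N module with an iron-sulfur cluster off the main electron path, had 13.46 and 12.35, a difference of -1.11. Ndufa9, which resembles short-chain dehydrogenases and sits between the Q module and the membrane, had 9.73 and 8.68, a difference of -1.05. Just outside the 2-fold limit lay the assembly factor Ndufaf1 at -0.94, Ndufaf4 at 0.92 on the other side, and the membrane subunit Ndufa1 at -0.90. Below the central 95% of the receptor genes lay 7 of the 52 genes, namely the 5 genes at least 2-fold lower, Ndufaf1 and Ndufa1, and none lay above it. Of all genes, 4.59% lay below and 1.57% above this range, and of genes above background 7.12% and 1.92%. The range reaches further to the higher side, so that Ndufaf4 at 0.92 was inside it while Ndufa1 at -0.90 was not.

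The promoters of the 5 genes at least 2-fold lower and of Ndufaf4, the gene with the largest positive difference, are shown so that genes at either end of the range can be compared. Each is the 250 bases before the RefSeq transcription start (GRCm38.p6), written 5′ to 3′ on the strand of the gene. Capitals mark matches on either strand to the motifs of NRF1, YY1, ETS factors (CCGGAAG) and CREB (TGACGTCA), the CCAAT box (CCAAT) and the GC box (GGGCGG). The windows lie at chr19:3912775-3913024, minus strand; chr8:69902021-69902270, minus strand; chr17:31519865-31520114, plus strand; chr17:66101560-66101809, minus strand; chr6:126849145-126849394, minus strand; and chr4:24897833-24898082, plus strand.
Ndufs8: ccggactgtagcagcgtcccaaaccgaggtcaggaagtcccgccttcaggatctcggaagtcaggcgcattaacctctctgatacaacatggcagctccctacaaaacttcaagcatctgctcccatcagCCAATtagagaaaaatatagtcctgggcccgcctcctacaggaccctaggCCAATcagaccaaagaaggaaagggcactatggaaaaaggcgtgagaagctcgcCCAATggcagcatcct
Ndufa13: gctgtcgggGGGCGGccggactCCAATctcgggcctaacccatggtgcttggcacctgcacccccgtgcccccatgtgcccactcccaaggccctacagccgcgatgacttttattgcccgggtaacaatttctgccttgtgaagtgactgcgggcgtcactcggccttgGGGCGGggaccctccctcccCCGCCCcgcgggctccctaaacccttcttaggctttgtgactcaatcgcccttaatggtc
Ndufv3: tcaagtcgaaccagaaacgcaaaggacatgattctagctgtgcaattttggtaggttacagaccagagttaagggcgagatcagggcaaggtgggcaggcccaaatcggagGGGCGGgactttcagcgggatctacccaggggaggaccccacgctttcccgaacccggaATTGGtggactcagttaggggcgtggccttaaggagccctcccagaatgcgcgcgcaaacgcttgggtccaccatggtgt
Ndufv2: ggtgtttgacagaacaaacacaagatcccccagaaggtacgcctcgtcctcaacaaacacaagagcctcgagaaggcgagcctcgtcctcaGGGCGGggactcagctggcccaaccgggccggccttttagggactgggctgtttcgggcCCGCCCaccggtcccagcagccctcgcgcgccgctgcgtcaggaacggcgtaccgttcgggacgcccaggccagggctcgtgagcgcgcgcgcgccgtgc
Ndufa9: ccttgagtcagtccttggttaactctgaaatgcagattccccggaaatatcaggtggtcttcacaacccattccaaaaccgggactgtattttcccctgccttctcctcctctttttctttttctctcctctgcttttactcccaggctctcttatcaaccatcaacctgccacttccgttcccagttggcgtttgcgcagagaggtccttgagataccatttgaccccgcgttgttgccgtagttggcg
Ndufaf4: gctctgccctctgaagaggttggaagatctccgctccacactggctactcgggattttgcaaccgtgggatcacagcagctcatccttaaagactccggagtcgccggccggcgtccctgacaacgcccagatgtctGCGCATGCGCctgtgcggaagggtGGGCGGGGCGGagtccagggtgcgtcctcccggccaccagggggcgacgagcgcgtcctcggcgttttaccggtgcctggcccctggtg
Among these windows, that of Ndufaf4 held the NRF1 motif, beside 2 overlapping GC boxes. Ndufs8 held 3 CCAAT boxes, all on its own strand. Ndufa13 held 1 CCAAT box and 3 GC boxes, Ndufv3 held 1 of each, Ndufv2 held 2 GC boxes, and Ndufa9 held none of the 6 motifs before its start. In the 50 bases after the start, which are not printed, Ndufs8 had an ETS motif, Ndufa9 a YY1 motif, and Ndufv3 a further CCAAT box and GC box.

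Promoter windows (250 bases before to 50 after the start) were matched for 46 of the 52 genes, as 48 windows. NRF1 is a transcription factor known for its sites in promoters of respiratory chain genes. Its motif was in 20.8% of these windows and in 4.60% of the 32851 windows of all genes; the YY1 motif was in 12.5% against 0.852%, the ETS motif in 16.7% against 8.86%, the CREB motif in 8.33% against 1.79%, the GC box in 54.2% against 35.7% and the CCAAT box in 37.5% against 37.4%. No window of these genes held the NF-κB motif searched, which was in 0.411% of all windows. With a motif this rare, 48 windows are too few for its absence to carry information. These shares take no account of base composition. The 9 genes with the NRF1 motif had a median log2 difference of -0.14, with 7 lower, against -0.31 in the 37 genes without it, with 30 lower. The carrier with the lowest difference was Ndufaf5 at -0.74, and the highest was Ndufaf4 at 0.92. None of the 5 genes at least 2-fold lower held it. With 9 carriers among the 46 genes matched, 5 genes are too few for this absence to carry information.

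In the N module, 7 of 8 genes were lower, with a median log2 difference of -0.43. Ndufv1, the core subunit that binds NADH and the flavin, had log2 signals of 12.71 in shEmpty cells and 12.29 after knockdown, a difference of -0.42. Ndufs1, the core subunit with most of the clusters of this module, went from 10.97 to 10.51, a difference of -0.46. The supernumerary subunits Ndufa12, Ndufa2 and Ndufs4 had differences of -0.44, -0.37 and -0.28. These differences around -0.4 were close to the spread of 1 probe set (SD 0.35). Ndufs6, a zinc-binding subunit added late in assembly, was the exception at 0.08, with signals of 10.90 and 10.98. Beside the pair Ndufv2 and Ndufv3, the differences of this module thus lay within -0.46 and 0.08.

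All 7 genes of the Q module analysed were lower, with a median log2 difference of -0.62, but they spread from -1.40 to -0.01. Ndufs7, the core subunit that holds the last iron-sulfur cluster before ubiquinone, had log2 signals of 9.97 and 9.35, a difference of -0.62. Ndufs3, a core subunit without a cluster, had 11.58 and 11.55, a difference of -0.03. Ndufa7 had 6.71 and 6.70, a difference of -0.01. The signs of Ndufs3 and Ndufa7 turned under quantile normalization of the arrays and once a lowess trend on mean signal was removed. Ndufa6 was at -0.69 and Ndufa5 at -0.14. Low and near-equal genes thus stood side by side within this module.

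By role, all 6 core subunit genes analysed were lower, with a median log2 difference of -0.54 on the deposited scale, against -0.28 in the 29 supernumerary genes, of which 24 were lower. The 5 core genes whose proteins carry the flavin or an iron-sulfur cluster (Ndufv1, Ndufv2, Ndufs1, Ndufs7 and Ndufs8) ran from -1.40 to -0.42. This grouping and the next were made after the values were seen. Ndufab1, the mitochondrial acyl carrier protein that sits in both arms of complex I, had log2 signals of 12.60 and 11.83, a difference of -0.77. Its binding partners in the complex are subunits with an LYR motif, Ndufa6 in the matrix arm and Ndufb9 at the far end of the membrane arm. Ndufa6 had signals of 12.01 and 11.32 and Ndufb9 had 14.78 and 13.99, so that the 3 differences lay between -0.79 and -0.69, at least 1.5-fold lower each.

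**Figure D2:**
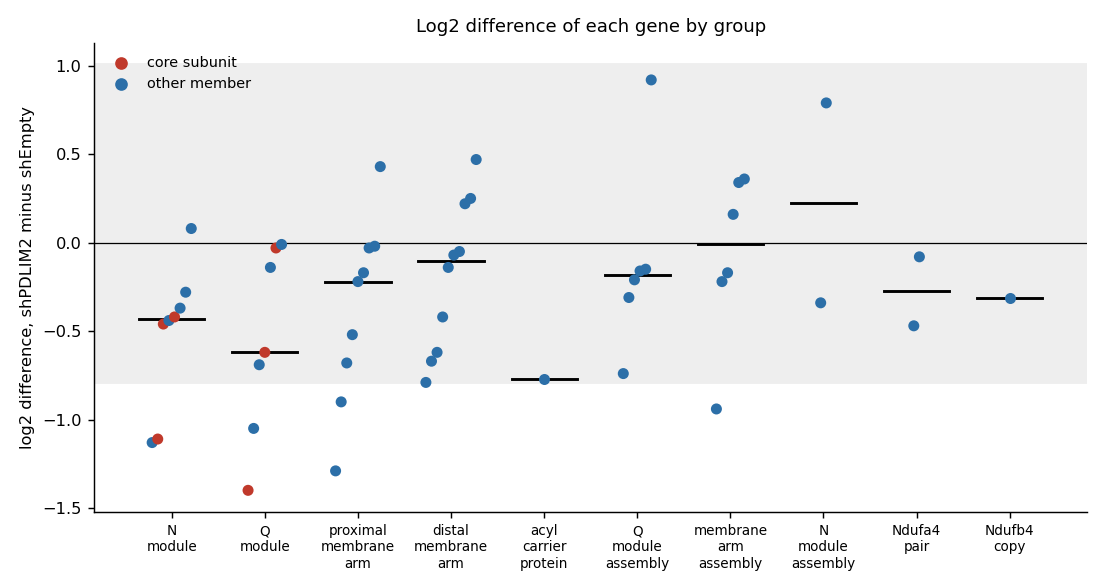
Log2 difference (shPDLIM2 minus shEmpty) of each of the 52 genes, by group, with core subunits in red and the other genes in blue. Black bars are group medians and the grey band is the central 95% of the chemosensory receptor genes (-0.79 to 1.01); the 7 points below the band are all in the N module, the Q module, the proximal membrane arm and the assembly factors of the membrane arm.

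The membrane arm had smaller differences than the matrix arm in the median, at -0.17 over 19 genes against -0.44 over 15, with 15 and 14 genes lower. After quantile normalization these medians were -0.09 and -0.33, and once the lowess trend was removed -0.10 and -0.35. With 1 array per line this contrast has no test. In the proximal part, around the ND1 and ND2 proteins, 8 of 9 genes were lower, with a median of -0.22, which was -0.14 under both of these scalings. Ndufa1, a small subunit essential for assembly, had log2 signals of 8.49 and 7.59, a difference of -0.90. Ndufa8 and Ndufa10, the latter a relative of nucleoside kinases, were at -0.68 and -0.52. Ndufs5 and Ndufa3 were at -0.22 and -0.17, and Ndufc1 and Ndufa11 at -0.03 and -0.02, whose signs turned under the same 2 scalings as that of Ndufs3. Ndufc2 was the single gene of this part that was higher, with 13.34 and 13.77, a difference of 0.43.

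In the distal part, around ND4 and ND5, 7 of 10 genes were lower, with a median log2 difference of -0.10. Ndufb9 had the largest negative difference, -0.79, followed by Ndufb5 at -0.67, Ndufb10 at -0.62 and Ndufb11 at -0.42. Ndufb7, Ndufb4 and Ndufb2 were at -0.14, -0.07 and -0.05. Ndufb8 had log2 signals of 6.76 and 7.23, a difference of 0.47, the largest positive one among the subunits, and Ndufb6 and Ndufb3 were higher at 0.25 and 0.22. After quantile normalization the median of this part was 0.01, and Ndufb4 and Ndufb2 were then on the other side of 0. None of the 10 genes differed by 2-fold or more. Ndufa8, Ndufb10, Ndufs5 and Ndufb7 belong to the CHCH proteins, which are folded by disulfide bonds in the intermembrane space. All 4 were lower, from -0.68 to -0.14, as were 30 of the 35 subunit genes together. This grouping was chosen with earlier results of these data known.

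The order of the modules depended on where disputed subunits are placed. Schemes differ on Ndufa6, Ndufa7, Ndufa9 and Ndufab1. With Ndufa6 and Ndufa7 in the N module, Ndufa9 in the proximal membrane arm and Ndufab1 in the distal one, the median log2 differences were -0.43 for the N module, -0.38 for the Q module, -0.37 for the proximal and -0.14 for the distal membrane arm. Under either scheme the distal membrane arm was nearest to 0. The matrix arm was then at -0.43 and the membrane arm at -0.22.

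**Figure D3:**
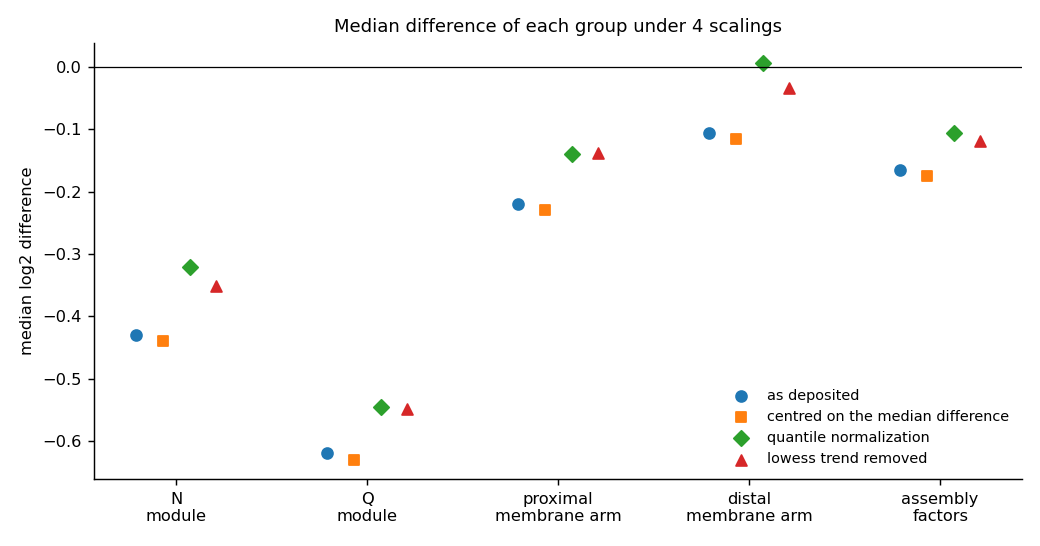
Median log2 difference of the N module (8 genes), Q module (7), proximal (9) and distal membrane arm (10) and assembly factors (14), on the deposited scale and under 3 other scalings of the 2 arrays. The Q module has the lowest median under each, from -0.63 to -0.55, and the distal membrane arm lies nearest to 0, from -0.12 to 0.01.

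Genes for assembly factors were found on both sides, and the difference between them and the subunits was not tested. Of 14 genes, 9 were lower and 5 higher, the median log2 difference was -0.16, and none differed by 2-fold or more on the deposited scale, while Ndufaf4 was at 1.01 after quantile normalization. At a 1.5-fold limit, 2 were lower and 2 higher. Among genes above background 54.9% were lower, and 14.5% were lower and 9.78% higher by 1.5-fold or more, so that these counts are near the shares over all such genes. The median of the assembly factors was -0.105 after quantile normalization. Ndufaf3 was not above background on either array, with log2 signals of 4.85 and 4.54, and is counted among the 9.

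Among factors of the Q module, Ndufaf4 had log2 signals of 8.80 in shEmpty cells and 9.72 after knockdown, a difference of 0.92 (1.89-fold higher). It works bound to Ndufaf3, for which these signals give no direction. Ndufaf5, an enzyme that hydroxylates an arginine of Ndufs7, had 7.66 and 6.92, a difference of -0.74. Its partner Ndufaf8 had 6.15 and 6.00, a difference of -0.15. Ndufaf6 was at -0.21 and Ndufaf7, an arginine methyltransferase, at -0.16. Genes of factors that act together therefore had unequal differences, without a test of the inequality.

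Among factors of the membrane arm, Ndufaf1 had log2 signals of 8.01 and 7.07, a difference of -0.94 (1.92-fold lower). Ndufaf1 forms the MCIA assembly complex with Acad9, a relative of acyl-CoA dehydrogenases, with Ecsit and with Tmem126b. Acad9 had 8.76 and 9.12, a difference of 0.36. Ecsit, also an adaptor of Toll-like receptor signalling, was at -0.17 and Tmem126b at 0.16. The 4 MCIA genes thus split, 2 lower and 2 higher. Foxred1, a flavoprotein of later steps, was at 0.34 with signals of 6.12 and 6.46, and Timmdc1, a membrane factor, at -0.22.

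Of the factors of the N module, Nubpl, which is needed for the iron-sulfur clusters of complex I, had log2 signals of 7.26 and 8.05, a difference of 0.79 (1.73-fold higher). Ndufaf2, a paralog of the subunit Ndufa12 that holds its place during assembly, had 7.43 and 7.09, a difference of -0.34, beside -0.44 for Ndufa12. The direction of each of the 14 assembly factors was the same on the deposited scale and under the 3 other scalings.

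**Figure D4:**
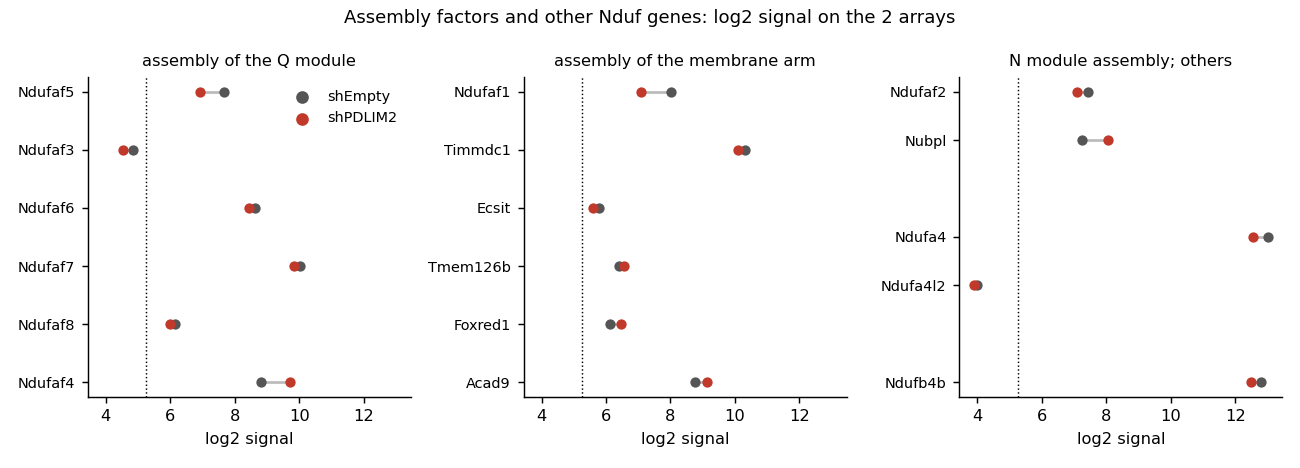
Log2 signal on the shEmpty array (grey points) and the shPDLIM2 array (red points) of the 14 assembly factors, by the module they help to build, and of Ndufa4, Ndufa4l2 and Ndufb4b. The dotted line is the background limit of the shPDLIM2 array (5.26), which Ndufaf3 and Ndufa4l2 do not reach; Ndufaf4 and Nubpl show the widest steps to higher and Ndufaf1 and Ndufaf5 to lower signals.

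Ndufa4, which was first counted as a complex I subunit and is now placed in cytochrome c oxidase, had log2 signals of 13.01 and 12.54, a difference of -0.47. Its relative Ndufa4l2, known as a target of HIF-1, was not above background on either array, with 3.98 and 3.90. Ndufb4b had 12.79 and 12.48, beside 12.61 and 12.54 for Ndufb4; the sources used here do not say whether their probes tell the copies apart, and both values are uncertain.

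Subunit genes were set beside all genes of the same range of mean log2 signal, since differences of dim and bright genes spread differently. At mean signals from 12 up, 8 of 9 subunit genes were lower with a median log2 difference of -0.52, and of 1277 genes in this range 57.2% were lower, with a median of -0.08. From 10 to 12, 8 of 10 were lower (median -0.22), against 52.9% of 1601 genes (median -0.04). From 8 to 10, 9 of 10 were lower (median -0.40), against 56.7% of 2327 genes (median -0.09). From 6 to 8, 5 of 6 were lower, but the median of -0.10 was near that of the 2986 genes in this range, -0.08.

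**Figure D5:**
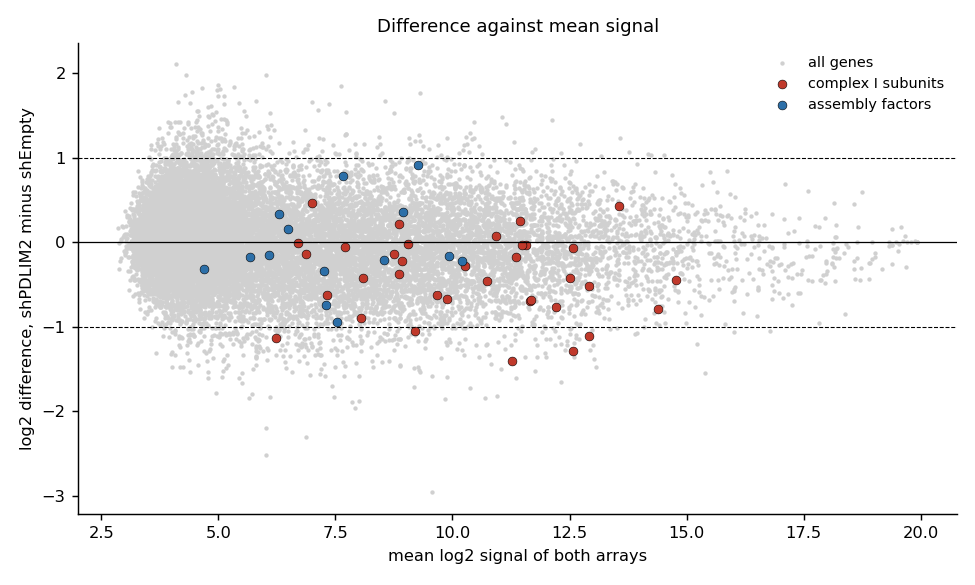
Log2 difference (shPDLIM2 minus shEmpty) against the mean log2 signal of both arrays, for all 19505 genes (grey), complex I subunits (red, 35 genes) and assembly factors (blue, 14 genes). Dashed lines mark a 2-fold difference; 30 red points lie below 0 and 5 of them below the lower dashed line.

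Other genes around complex I lay on both sides as well. Of 10 further genes for its assembly and for import or membrane insertion of its subunits, 6 were lower and 4 higher, the median log2 difference was -0.13 and none was past 1.5-fold. Dmac1, an assembly factor of the distal membrane arm, was lowest at -0.48, with log2 signals of 11.84 and 11.36, and Tmem70 highest at 0.40, with 7.38 and 7.78. Aifm1 and Chchd4, which together import CHCH proteins, were at 0.01 and -0.15. Of 11 genes for other routes of electrons to ubiquinone, 9 were lower, with a median of -0.20. The 9 include the succinate dehydrogenase genes Sdha (-0.55), Sdhb (-0.23), Sdhc (-0.13) and Sdhd (-0.25). The study reported these genes as lower from the same arrays, so their direction is not independent evidence. Chdh, with 4.23 and 4.04, was above background on neither array and is counted among the 9. Etfdh, which takes electrons from fatty acid oxidation, was lowest at -0.92, with log2 signals of 10.38 and 9.46, followed by Gpd2, the mitochondrial glycerol phosphate dehydrogenase, at -0.88, and Prodh, proline dehydrogenase, was highest at 0.39, with 6.16 and 6.55. At least 1.5-fold lower were 13 of 35 complex I subunit genes, 4 of 9 of complex III, 5 of 14 of complex IV and 5 of 15 of complex V. Of all genes, 10.0% were that much lower, and of genes above background 14.5%. Among the 5 of complex IV, Cox6b2 (5.02 and 4.29) was above background on neither array, so its signals give no direction. Cox4i2 and Cox7a1, also among the 14 of complex IV, were above background on neither array. Among the 5 of complex V, Atp5k (5.56 and 4.78) was above it on the shEmpty array alone. Atp5pb and Atp5mpl, with differences of -0.10 and -0.36, were not in the complex V list. The counts of genes lower by any amount in this paragraph stand beside 49.0% of all genes and 54.9% of those above background. The complexes were not tested against each other.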

How the data were processed

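RNA of 1 shEmpty and 1 shPDLIM2 LLC culture was measured on Affymetrix Clariom S mouse arrays, and no replicates were used. What the authors deposited is 1 log2 signal for each probe set; RMA and the Transcriptome Analysis Console are named in the submitters' processing notes, with versions, genome build and normalization between the arrays not given in the sources used here. Gene symbols came from the platform's annotation, and probe sets of 1 gene were averaged, which left 19505 genes from 22206 probe sets. Probe sets without a symbol or with more than 1 symbol were left out. Groups followed the labels. The members and lists were chosen with earlier results of these data known. Every member may be named; both signals are given for core subunits, members at least 2-fold different and the ends of each group. Background was the 95th percentile of chemosensory receptor genes (symbols starting with Olfr, Or, Vmn1r, Vmn2r, Tas1r, Tas2r or Taar). As alternatives, differences were centred on their median, arrays were quantile normalized, and the other settings were removal of a lowess trend (fraction 0.3), filters on background, single probe sets, another assignment to modules and a fold of 1.5. The steps were tested on simulated data. Promoters came from RefSeq tables (GRCm38.p6). Only 2 arrays limit the precision. Python 3.11.15, numpy 2.4.6, pandas 2.3.3, statsmodels 0.14.6 and matplotlib 3.10.9 were used.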

Additional observations from a re-analysis of the deposited data

How the results depend on the processing

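No paired analysis was possible because each line has 1 array, and no replicate could be left out. The median log2 difference of the 35 subunit genes was -0.42 as deposited, -0.31 with quantile normalization and -0.33 once the lowess trend was removed, with 24 and 25 genes lower in place of 30; the genes that turned were Ndufs3, Ndufa7, Ndufc1, Ndufa11 and Ndufb2 under both, and Ndufb4 under quantile normalization. The median of all genes moved by 0.01 at most. At least 2-fold lower were then 4 subunit genes in place of 5, as Ndufa9 was at -0.97 after removal of the trend. The distal membrane arm was at 0.0075 after quantile normalization in place of -0.10. Quantile normalization and removal of the trend put the membrane arm at -0.09 and -0.10 in place of -0.17, the proximal part at -0.14 under both in place of -0.22, and the assembly factors at -0.105 and -0.12 in place of -0.16; Ndufaf4 was then at 1.01 and 0.997 in place of 0.92. Under the other assignment to modules, the Q module was at -0.38 and the proximal membrane arm at -0.37. With a fold of 1.5 in place of 2, 13 subunit genes and 2 assembly factors were lower and 2 assembly factors higher, in place of 5, 0 and 0. The filters on background and the use of single probe sets could not change the median of the subunits, -0.42. All 35 were above background on both arrays and each had 1 probe set. Signals near background, as of Ndufaf3 and Ndufa4l2, give no direction.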

Other observations

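The 52 genes lay on 18 chromosomes. Chromosome 17 had the largest number, 6 genes, whose log2 differences ran from -1.13 (Ndufv3) to -0.01 (Ndufa7). Only Ndufs8 and Ndufv1, on chromosome 19, lay within 10 protein-coding genes of each other in the RefSeq annotation, with 8 such genes between them, and had differences of -1.40 and -0.42.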
